A study of Mus musculus with 4 samples.

Results

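The mitochondrially encoded genes are the genes carried by the circular DNA of the mitochondrion itself, and they were taken here as every row of the gene table placed on chromosome MT or with a symbol starting with mt-. The rule found 13 of the 25587 genes of the table, all of them mRNAs: 7 subunits of complex I, cytochrome b of complex III, 3 subunits of complex IV and 2 of complex V. The 2 ribosomal RNAs and 22 transfer RNAs that GENCODE M21 also places on this chromosome were not analysed here. All 13 rows had the coordinates that GENCODE M21 gives on the GRCm38 assembly, and all 13 passed the minimum of 20 read counts in each pair of libraries compared.

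RNA-Seq had been performed on wild-type C57BL/6 (C57BL/6Babr) mouse oocytes from animals 5 to 20 days old, with 1 library of non-growing oocytes (NGOs), 2 of growing oocytes (GO1 and GO2) and 1 of fully grown oocytes (FGOs), and ribosomal RNA had been depleted from all 4. Per the authors, NGOs came from mice 5 days old and FGOs from mice 20 days old, with GO1 and then GO2 between. Age and stage thus cannot be told apart. NGO and FGO libraries were made by the dUTP method of marking strand and GO1 and GO2 libraries with the ScriptSeq v2 kit, so values were compared within a kit (NGO with FGO, GO1 with GO2) and are only set side by side across kits, where kit and stage cannot be told apart. With 1 library per stage there was no replicate check, no test between stages was possible, and intervals cover counting error alone. Between 61432789 (NGO) and 132493730 (GO2) counts on genes, recovered from the deposited values, stood behind the values. They are called read counts here, but 1 fragment can give more than 1 count, so they are not numbers of reads.

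Mitochondrial DNA is transcribed from both strands into long precursor RNAs, out of which most mRNAs are released when the transfer RNAs that lie between them are cut away. Nearly all mitochondrial mRNAs come from the heavy-strand promoters, and mt-Nd6 is the mRNA that comes from the light-strand promoter. During growth the oocyte builds up the mitochondria and mitochondrial DNA that the embryo inherits.

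Of the 13 genes, 12 were on the plus strand of the reference and mt-Nd6 alone on the minus strand. Neighbours were mostly separated by 1 to 5 transfer RNA genes, but 4 pairs overlapped. The 3 that share more than 1 base are shown because reads from the shared stretch could belong to either gene. In each sequence (mouse, GRCm38, from GENCODE M21 transcripts, 5′ to 3′) the capitals mark the bases shared by the genes named, with 20 bases of flank on each side. For the pairs on the same strand, the shared stretch runs from the start codon of the downstream gene to the stop codon of the upstream one. mt-Atp8 shares 43 of its 204 bases with mt-Atp6, and mt-Nd4l shares 7 of its 297 bases with mt-Nd4. mt-Nd5 and mt-Nd6 share 14 bases with their 3′ ends facing each other on opposite strands, and the last sequence gives the same stretch on the strand of mt-Nd6.
mt-Atp8 and mt-Atp6, chrM:7907-7989, plus strand: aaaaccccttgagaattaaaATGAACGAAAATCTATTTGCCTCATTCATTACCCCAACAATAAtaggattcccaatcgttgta
mt-Nd4l and mt-Nd4, chrM:10147-10193, plus strand: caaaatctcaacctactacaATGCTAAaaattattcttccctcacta
mt-Nd5 and mt-Nd6, chrM:13532-13585, plus strand: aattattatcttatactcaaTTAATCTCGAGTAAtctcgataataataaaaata
mt-Nd5 and mt-Nd6, chrM:13532-13585, minus strand: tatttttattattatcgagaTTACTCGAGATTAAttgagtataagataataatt

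The 13 mRNAs together made up 0.366 % of the read counts on genes in the NGO library (95 % Wilson interval 0.3649 to 0.3679 %) and 0.108 % in the FGO library (0.1072 to 0.1088 %). In the ScriptSeq libraries they made up 0.848 % in GO1 (0.8460 to 0.8502 %) and 0.379 % in GO2 (0.3780 to 0.3801 %). The share was lower in the later library of each pair. Summed over the 13 genes, the level in RPKM (reads per length of gene and per size of library) was 2397 in NGOs against 741 in FGOs, and 6155 in GO1 against 2478 in GO2. The median gene stood at 54.3 against 41.8 RPKM in the first pair and at 355 against 146 RPKM in the second. Reads of these genes that were placed at nuclear copies, described below, would be missing from these shares and levels. How many there were was not tested. In these bulk libraries, fewer mitochondria, fewer transcripts in each and a larger pool of other RNA cannot be told apart, and neither can fewer cells of a type and less RNA per cell.

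The genes were far from equal within a library. The highest was 661 times the lowest per unit length in NGOs and 212 times in FGOs, and 693 times in GO1 and 381 times in GO2, with mt-Nd4l the lowest each time. These folds rest on mt-Nd4l, which has an identical nuclear copy, Gm10222, described below. With the levels of both loci summed, an alternative added after seeing the data, they were 94.7 in NGOs and 26.4 in FGOs, and 36.0 in GO1 and 19.6 in GO2, and the lowest gene was mt-Nd5 in FGOs and mt-Nd6 in the other libraries. mt-Co3, a core subunit of cytochrome c oxidase, was the highest in NGOs and FGOs, where it ranked 9 and 71 among all genes of the table. In GO1 the highest was mt-Atp8, a small subunit of the ATP synthase, which ranked 3 among all genes, and in GO2 it was mt-Co1, the catalytic subunit of cytochrome c oxidase, which ranked 25. In the order of levels, no intervals of neighbours overlapped in GO1 and GO2. The pairs whose intervals overlapped were mt-Nd2 with mt-Nd4 and mt-Nd5 with mt-Nd6 in NGOs, and mt-Atp8 with mt-Co2 and mt-Nd2 with mt-Nd4 in FGOs. These intervals take each count as independent, which the counts are not, and so are too narrow. Close neighbours, such as mt-Atp8 (424 to 435 RPKM) and mt-Co3 (412 to 418 RPKM) in GO2, may therefore not be separated.

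**Figure D1:**
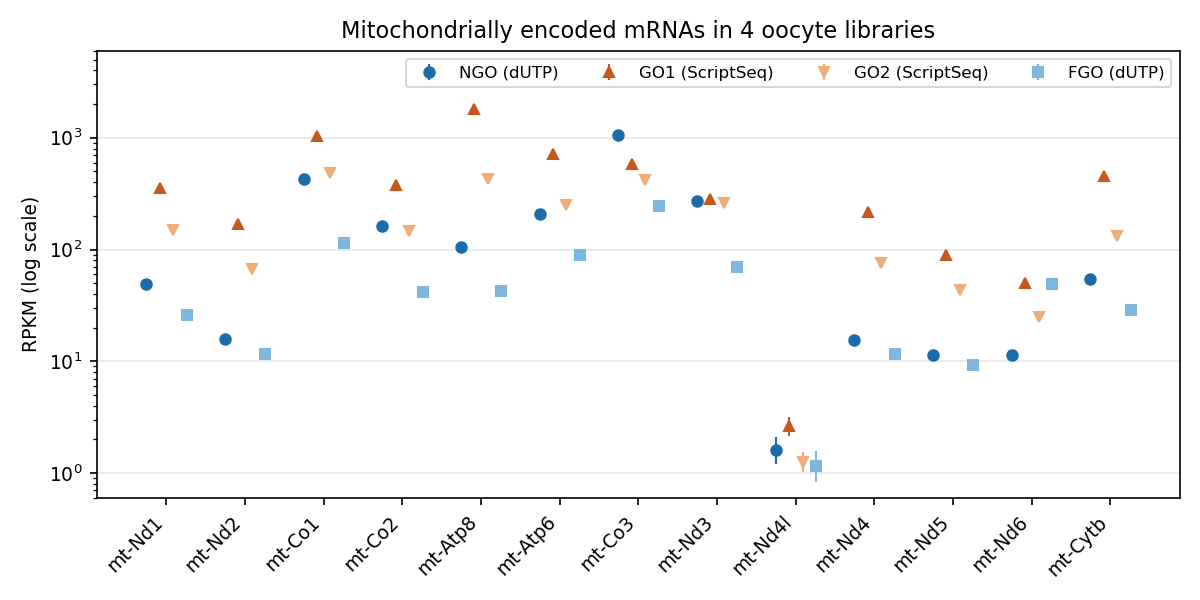
Level of each of the 13 mitochondrial mRNAs in RPKM (log scale) in the 4 libraries, in genome order; points are single libraries and bars the 95 % Poisson counting intervals, mostly smaller than the point. mt-Nd4l lies between 1.15 and 2.63 RPKM in every library, and mt-Nd6 is the one gene whose FGO point, at 48.9 RPKM, lies above its NGO point, at 11.3 RPKM.

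From NGOs to FGOs, 12 of the 13 genes had a lower level, with a median log2 ratio of −0.86 against −0.01 over all 15248 genes tested, of which 50.5 % were below 0. A single member, mt-Co3, was past 4-fold lower, a call made for 5.51 % of all genes tested, and a single member, mt-Nd6, was past 4-fold higher, a call made for 8.57 %. At a threshold of 2-fold, 6 members were lower (mt-Co1, mt-Co2, mt-Co3, mt-Atp8, mt-Atp6 and mt-Nd3), against 16.7 % of all genes tested. The summed read counts of the 13 had a log2 ratio of −1.66 (95 % interval −1.67 to −1.65).

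From GO1 to GO2, all 13 genes had a lower level, with a median log2 ratio of −1.27 against 0.02 over all 15720 genes tested. mt-Atp8 alone was past 4-fold lower, against 0.254 % of all genes tested, and no member was past 4-fold higher, against 1.51 %. At 2-fold, 11 of 13 were lower, all but mt-Co3 and mt-Nd3, against 2.84 % of all genes tested. The log2 ratio of the summed counts was −1.24 (−1.24 to −1.23).

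**Figure D2:**
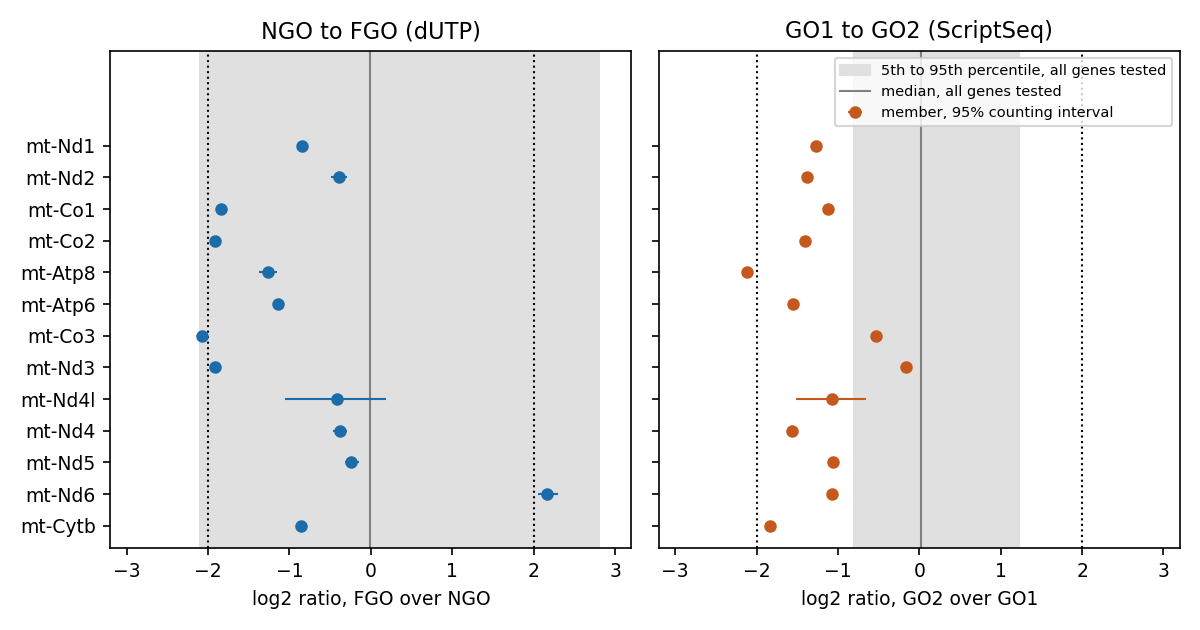
log2 ratio of each mitochondrial mRNA from NGOs to FGOs (left) and from GO1 to GO2 (right), with 95 % counting intervals; grey bands span the 5th to the 95th percentile of all genes tested and dotted lines mark 4-fold. On the left 12 genes lie left of the line of the median and mt-Nd6 lies at 2.17, and on the right 11 genes lie left of the grey band, with mt-Co3 at −0.53 and mt-Nd3 at −0.16 inside it.

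The subunits of cytochrome c oxidase (complex IV), which passes electrons to oxygen, included mt-Co3 and mt-Co1, the 2 highest genes in both dUTP libraries. mt-Co3 was at 1066 RPKM in NGOs and 245 in FGOs, a log2 ratio of −2.07 (−2.09 to −2.05), and at 585 in GO1 and 415 in GO2, a log2 ratio of −0.53 (−0.54 to −0.51). mt-Co1 was at 425 RPKM in NGOs and 115 in FGOs (log2 −1.84), and at 1027 in GO1 and 483 in GO2 (log2 −1.12). mt-Co2, the subunit that takes electrons from cytochrome c, was at 163 and 41.8 RPKM (log2 −1.91) and at 379 and 146 RPKM (log2 −1.41). The ratios of the 3 genes thus lay between −2.07 and −1.84 in the dUTP pair, while in the ScriptSeq pair that of mt-Co3 was nearer to 0 than those of mt-Co1 and mt-Co2.

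The 2 subunits of the ATP synthase (complex V) are read from overlapping frames of 1 stretch of DNA. mt-Atp6, part of the proton channel, was at 206 RPKM in NGOs and 90.0 in FGOs (log2 −1.14), and at 718 in GO1 and 250 in GO2 (log2 −1.55). mt-Atp8 was at 105 and 42.4 RPKM (log2 −1.26) and at 1821 and 429 RPKM (log2 −2.12, interval −2.14 to −2.09). The level of mt-Atp8 relative to mt-Atp6 was 0.511 in NGOs and 0.471 in FGOs, below 1 in both dUTP libraries. It was 2.54 in GO1 and 1.71 in GO2, above 1 in both ScriptSeq libraries. mt-Atp8 is the shortest of the 13 genes, and how fragments across the overlap were assigned was not given in the sources used here. Of its stretches of 100 bases, mt-Atp6 shares 99.5 % with an annotated nuclear copy and mt-Atp8 shares 0, and the split of reads between mt-Nd4l and its own nuclear copy, given below, differed between the kits. The part of read placement in the ratio of mt-Atp8 to mt-Atp6 was not tested.

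mt-Cytb, cytochrome b of complex III, was at 54.3 RPKM in NGOs and 28.8 in FGOs (log2 −0.86), and at 457 in GO1 and 131 in GO2 (log2 −1.84). Its NGO to FGO ratio was the median of the 13, and its GO1 to GO2 ratio was the second lowest after mt-Atp8.

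The subunits of complex I, the NADH dehydrogenase that feeds electrons into the chain, spread the most. mt-Nd3 had the highest level of the 7 in 3 of the 4 libraries, at 272 RPKM in NGOs, 261 in GO2 and 69.2 in FGOs, and was at 286 RPKM in GO1, where mt-Nd1 was higher. Its log2 ratio was −1.92 from NGOs to FGOs but −0.16 (−0.20 to −0.13) from GO1 to GO2, the ratio nearest to 0 of any member in that pair. mt-Nd3 follows mt-Co3 in the genome with 1 transfer RNA gene, mt-Tg, between them, and these neighbours had the lowest log2 ratios of the 13 in the dUTP pair and the highest in the ScriptSeq pair. mt-Nd3 and mt-Co2 did not differ beyond counting error in the dUTP pair.

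mt-Nd1 was at 49.1 RPKM in NGOs and 26.2 in FGOs (log2 −0.85), and at 355 in GO1 and 151 in GO2 (log2 −1.27). mt-Nd2 was at 15.9 and 11.7 RPKM in the dUTP pair (log2 −0.39) and at 169 and 66.4 RPKM in the ScriptSeq pair (log2 −1.38). mt-Nd4 was at 15.6 and 11.6 RPKM (log2 −0.38) and at 217 and 75.4 RPKM (log2 −1.56). mt-Nd1, mt-Nd2 and mt-Nd4, membrane subunits of the proton pump, thus differed less between NGOs and FGOs than the complex IV subunits did. This does not hold for all of complex I, since mt-Nd3 was at −1.92, within the range of the complex IV subunits, and mt-Nd6 at 2.17. mt-Nd5 was at 11.3 RPKM in NGOs and 9.28 in FGOs, and its log2 ratio of −0.24 (−0.32 to −0.15) was the smallest in size of the 13 in that pair. From 88.5 RPKM in GO1 to 43.6 in GO2 it was −1.06.

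mt-Nd6, the complex I subunit coded on the other strand, was at 11.3 RPKM in NGOs (646 read counts) and 48.9 in FGOs (3034 read counts). The log2 ratio was 2.17 (2.05 to 2.30), higher than that of 92.3 % of all genes tested and 3.03 above the median of the 13. From 50.6 RPKM in GO1 to 24.7 in GO2 its log2 ratio was −1.07 (3331 and 3094 read counts), and there it lay among the other genes. mt-Nd6 took 0.469 % of the summed RPKM of the 13 in NGOs and 6.60 % in FGOs, and moved from rank 12 to rank 5 among them. In the ScriptSeq libraries it took 0.822 and 0.997 % and held rank 12 in both.

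The summed level of the 12 plus-strand genes was 212 times that of mt-Nd6 in NGOs and 14.2 times in FGOs, against 121 times in GO1 and 99.3 times in GO2. This ratio is taken within a library and so does not depend on how libraries are scaled to each other. Against mt-Nd5, which it overlaps tail to tail, mt-Nd6 stood at 0.992 in NGOs and 5.26 in FGOs, and at 0.572 and 0.567 in the ScriptSeq libraries. Whether reads were counted by strand was not given in the sources used here; without strand, reads of mt-Nd6 and of RNA from the opposite strand cannot be told apart. The share of either in the FGO value was not tested.

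Since each share is taken within a library, the make-up of the 13 can be described without any scaling. The sequence shared with annotated nuclear copies differs between the genes, as given below. Reads placed at the copies would thus be missing unevenly, and their part in the make-up was not tested. Complex IV genes held 69.0 % of the summed RPKM in NGOs and 54.2 % in FGOs, and 32.3 % in GO1 and 42.1 % in GO2. Of complex V, mt-Atp6 and mt-Atp8 held 8.59 and 4.39 % in NGOs and 12.2 and 5.72 % in FGOs, and together 41.2 % in GO1 and 27.4 % in GO2. Within the dUTP pair the complex IV share was lower in the later library, and within the ScriptSeq pair it was higher. Complex I genes held 15.7 % in NGOs and 24.0 % in FGOs, or 15.2 and 17.4 % without mt-Nd6, and 19.0 and 25.2 % in GO1 and GO2. The 3 highest genes held 73.6 % in NGOs and 60.7 % in FGOs, and 57.9 and 53.6 % in the ScriptSeq libraries.

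**Figure D3:**
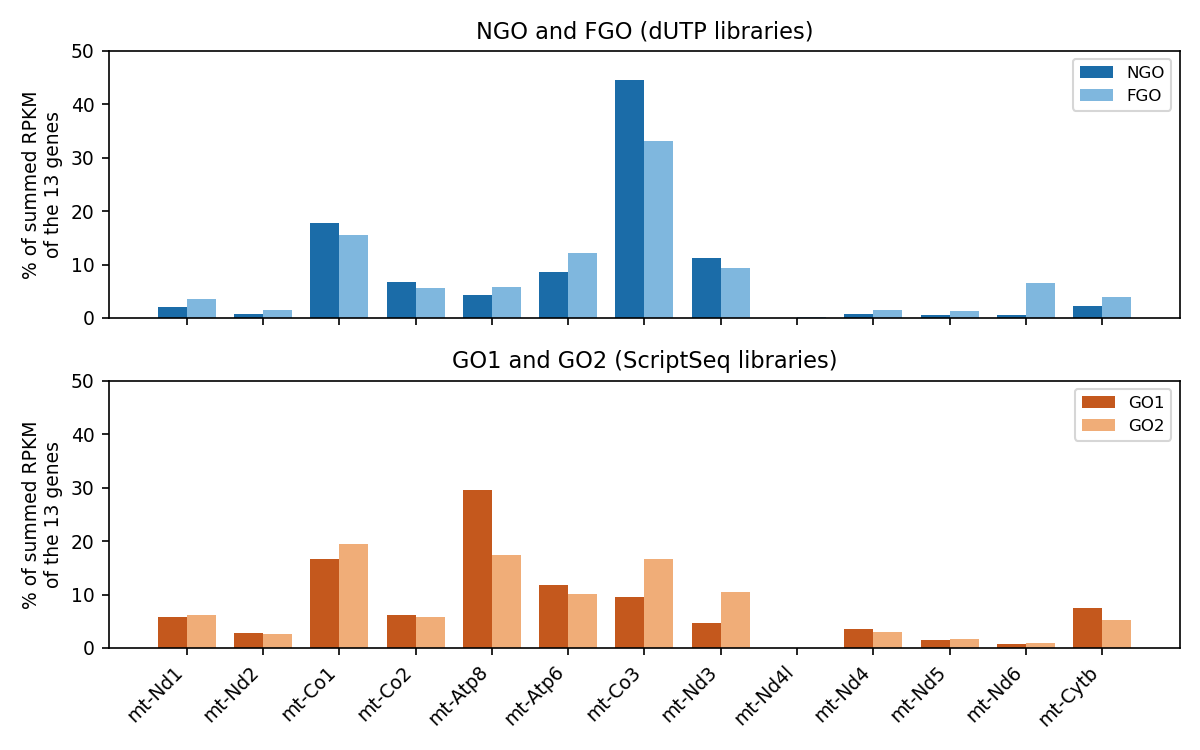
Share of each gene in the summed RPKM of the 13 mitochondrial mRNAs, in % from 0, for NGO and FGO (top) and GO1 and GO2 (bottom); bars are single libraries. mt-Co3 is the tallest bar in NGOs and FGOs (44.5 and 33.1 %), mt-Atp8 in GO1 (29.6 %), and the bars of mt-Nd4l are too small to see.

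mt-Nd4l, a small complex I subunit, had 53 read counts in NGOs (1.61 RPKM) and 41 in FGOs (1.15 RPKM), and 99 in GO1 (2.63 RPKM) and 91 in GO2 (1.27 RPKM). It shares 7 bases with mt-Nd4, which was 9.68 times as high in NGOs and 10.0 times in FGOs, and 82.6 times in GO1 and 59.4 times in GO2. Its log2 ratio from NGOs to FGOs was −0.42, with an interval from −1.06 to 0.19 that includes 0, so no difference was detectable at this depth, and from GO1 to GO2 it was −1.07 (−1.51 to −0.66).

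A nuclear row of the table bears on this value. Gm10222, an unprocessed pseudogene at chr1:24612404-24612700 on the minus strand, is a copy of mt-Nd4l, and all 294 bases of its GENCODE M21 transcript were identical to mt-Nd4l, with 0 differences. The sequence of mt-Nd4l is given whole because a read from any part of the identical stretch could be placed at either locus. Lower case marks the bases identical to the transcript of Gm10222. Capitals mark the last bases, which that transcript does not reach, though the row of Gm10222 spans 297 bases.
mt-Nd4l, chrM:9877-10173, plus strand: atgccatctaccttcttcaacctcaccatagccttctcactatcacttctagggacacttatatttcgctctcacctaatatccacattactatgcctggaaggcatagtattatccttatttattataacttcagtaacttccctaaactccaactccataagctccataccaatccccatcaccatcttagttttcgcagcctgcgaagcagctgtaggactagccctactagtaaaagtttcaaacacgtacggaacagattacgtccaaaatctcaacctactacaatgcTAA

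Gm10222 had 512 read counts in NGOs (15.6 RPKM) and 355 in FGOs (9.99 RPKM), and 6888 in GO1 (183 RPKM) and 3906 in GO2 (54.5 RPKM). Of the counts of both loci, mt-Nd4l thus held 9.38 % in NGOs (interval 7.24 to 12.1 %) and 10.4 % in FGOs (7.72 to 13.7 %). It held 1.42 % in GO1 (1.17 to 1.72 %) and 2.28 % in GO2 (1.86 to 2.79 %). Summed, the level of both loci was 1.10 times that of mt-Nd4 in NGOs, 0.964 times in FGOs, 0.855 times in GO1 and 0.739 times in GO2, close to the neighbour that mt-Nd4l overlaps. mt-Nd4 stands here at its mitochondrial locus alone. Of its stretches of 100 bases, 60.8 % are shared with an annotated nuclear copy that has no row here. Reads placed at that copy would be missing from the level of mt-Nd4, and how many there were was not tested. The summed counts gave a log2 ratio of −0.57 (−0.76 to −0.38) in the dUTP pair, beside −0.38 for mt-Nd4, and of −1.77 (−1.82 to −1.71) in the ScriptSeq pair, beside −1.56. Reads had been mapped by the authors with TopHat at 1 location per read, and which locus the reads of Gm10222 came from was not tested.

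**Figure D4:**
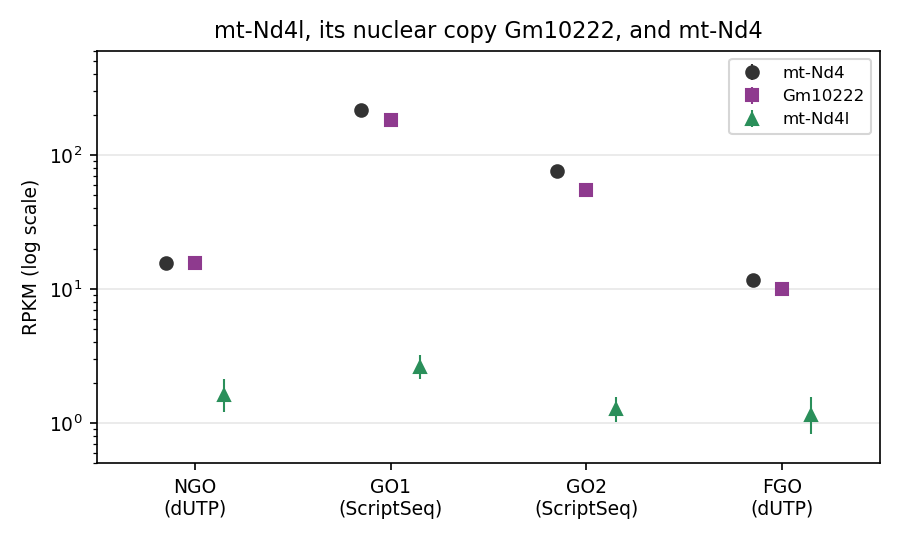
Level in RPKM (log scale) of mt-Nd4, of the nuclear pseudogene Gm10222 and of mt-Nd4l in the 4 libraries; points are single libraries, offset sideways, and bars 95 % Poisson counting intervals. Gm10222 follows mt-Nd4 in every library (15.6 beside 15.6 RPKM in NGOs, 183 beside 217 in GO1), and mt-Nd4l lies between 1.15 and 2.63 RPKM.

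Gm10222 is 1 of 7 annotated pseudogenes in a stretch of chromosome 1, chr1:24611535-24616197, all on the minus strand, that copy a run of the mitochondrial genome from mt-Co1 to mt-Nd4 in the same order. The other 6 were not among the rows analysed here, so no value stands for them. Of all stretches of 100 bases in each gene, the share found unchanged in a nuclear transcript of GENCODE M21 was 99.9 % for mt-Co3, 99.5 % for mt-Co2 and mt-Atp6, 98.5 % for mt-Nd4l and 97.6 % for mt-Nd3. It was 60.8 % for mt-Nd4, 30.8 % for mt-Co1 and 3.19 % for mt-Nd2, and 0 for mt-Nd1, mt-Atp8, mt-Nd5, mt-Nd6 and mt-Cytb. Nuclear DNA outside annotated transcripts was not searched, including the stretch of the chromosome 1 block where mt-Atp8 would lie. How many reads of mt-Co2, mt-Atp6, mt-Co3 and mt-Nd3 were placed on chromosome 1 was not tested. mt-Nd6, whose ratio had the other sign from NGOs to FGOs, shared no stretch of 100 bases, nor of 50 bases, with a nuclear transcript.

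The nuclear genes that serve mitochondrial DNA were compared in the same pairs. Of 7 genes of mitochondrial transcription tested, 0 were past 4-fold in either direction in either pair, by the log2 ratio alone since no test was possible. Over all genes tested, 5.51 % were past 4-fold lower and 8.57 % higher in the dUTP pair, and 0.254 and 1.51 % in the ScriptSeq pair. In a list of 7, a count of 0 is no result beside these shares. The median log2 ratio was −0.21 in the dUTP pair and −0.24 in the ScriptSeq pair. Polrmt, the mitochondrial RNA polymerase, was at 5.48 RPKM in NGOs and 4.56 in FGOs (log2 −0.21) and at 1.96 in GO1 and 2.72 in GO2 (log2 0.44). Tfam, which packages mitochondrial DNA and starts its transcription, was at 15.3 and 12.2 RPKM (log2 −0.27) and at 19.6 RPKM (11023 read counts) in GO1 and 17098 read counts in GO2 (log2 −0.33). Both ratios of Tfam and that of Polrmt from NGOs to FGOs were smaller in size than the median of the mitochondrial genes.

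Of 20 genes of mitochondrial RNA processing and decay, 1 was past 4-fold lower from NGOs to FGOs, near the 5.51 % of all genes tested, with a median log2 ratio of −0.15 over the list. It was Hsd17b10, a subunit of the enzyme that cuts the 5′ ends of mitochondrial transfer RNAs, at 28.6 RPKM in NGOs and 3.26 in FGOs (log2 −3.08), and at 9.61 in GO1 and 5.23 in GO2 (log2 −0.91). Of 19 mitochondrial aminoacyl-tRNA synthetases, Hars2, which charges the transfer RNA of histidine, was past 4-fold lower (1.38 to 0.111 RPKM, log2 −3.55), and the list had a median of −0.37. Of 11 regulators of mitochondrial biogenesis, Esrra, a nuclear receptor for genes of energy metabolism, was past 4-fold lower (0.958 to 0.0856 RPKM, log2 −3.38), and the list had a median of 0.23. A single gene called in a list of 11 to 20 is no result about the list beside that background. From GO1 to GO2, 0 genes of these lists were past 4-fold, with medians of −0.01, 0.09 and 0.14. The 11 genes of mitochondrial DNA replication had medians of 0.10 and 0.22 in the NGO to FGO and GO1 to GO2 pairs, with 0 past 4-fold. Of the mitophagy genes, which mark mitochondria for removal, 6 were tested, and their medians were −1.15 and −0.49, with 0 past 4-fold. In lists of 6 and 11 genes, a count of 0 is no result beside the background either.

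The nuclear-encoded partners of the same complexes were compared in both pairs. From NGOs to FGOs the median log2 ratio was −0.77 for 7 complex I core genes, −0.72 for 9 complex III genes, −0.68 for 10 complex IV genes and −0.56 for 15 complex V genes, beside −0.86 for the mitochondrial 13. Within complex IV, the mitochondrial genes, at −2.07 to −1.84, lay below all 10 nuclear genes, the lowest of which was at −1.23. mt-Cytb (−0.86) lay inside the nuclear range of complex III (−2.07 to 0.17). mt-Atp8 (−1.26) and mt-Atp6 (−1.14) lay inside that of complex V (−1.65 to 0.12). The mitochondrial complex I genes ran from −1.92 to 2.17, beyond both ends of the nuclear range (−1.62 to −0.29). Reads placed at nuclear copies would be missing from the mitochondrial values, and their part was not tested. Of all the nuclear genes of these 4 lists, only Cyc1, cytochrome c1 of complex III, was past 4-fold in either direction from NGOs to FGOs (22.7 to 5.22 RPKM, log2 −2.07). Over all genes tested in that pair, 5.51 % were past 4-fold lower and 8.57 % higher. From GO1 to GO2 the medians were −0.06, −0.17, 0.08 and −0.09, beside −1.27 for the mitochondrial genes, and the lowest nuclear value was −1.33, in complex IV. Because there is 1 library of each, these differences between gene groups were described and not tested.

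**Figure D5:**
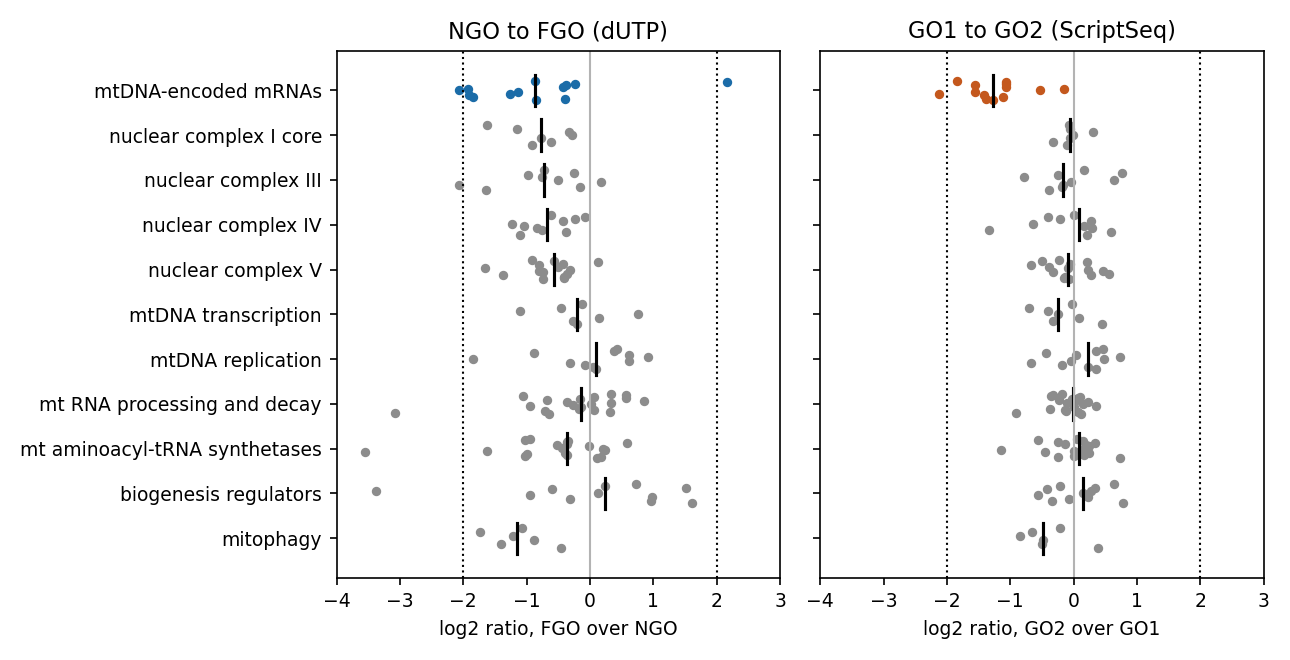
log2 ratio of each tested gene in the mitochondrial group (coloured, top) and in 10 lists of nuclear genes (grey), from NGOs to FGOs (left) and from GO1 to GO2 (right); black bars are medians and dotted lines mark 4-fold. On the right the mitochondrial genes, with a median of −1.27, lie left of most nuclear genes, whose list medians run from −0.49 to 0.22.

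The libraries held oocyte markers at high levels throughout, with summed levels of 10 markers between 3919 RPKM (GO2) and 6288 RPKM (NGO) and no marker at 0. Of these 10, only Figla, a transcription factor of early oocytes, was past 4-fold lower from NGOs to FGOs (102 to 20.6 RPKM, log2 −2.25). That call was made for 5.51 % of all genes tested. Markers of other cell types stood at far lower levels and differed between the libraries. Granulosa markers summed to 6.37 RPKM in NGOs against 19.6 in FGOs, and to 12.1 in GO1 against 16.5 in GO2, with 2 of 10 (Cyp19a1, 0.518 to 6.08 RPKM, and Hsd17b1, 0.135 to 0.655 RPKM) past 4-fold higher from NGOs to FGOs, against 8.57 % of all genes tested. Most of the difference in the sum came from Cyp19a1 and Nr5a2 (3.62 to 8.65 RPKM), while Foxl2 and Amhr2 had log2 ratios of −1.34 and −0.75 and Inhba of 0.01, these last 4 named after their values were seen. Stroma markers summed to 5.51 RPKM in NGOs and to 0.245 or less in the other libraries. Col1a1 (2.24 RPKM), Col3a1 (1.73) and Col1a2 (0.896) led the sum in NGOs. Of the 5 tested, 4 were past 4-fold lower from NGOs to FGOs, against 5.51 % of all genes tested. Lum was at 0 outside NGOs and was not tested. Its recovered count of 1 in NGOs may be too low, which bears on the minimum of 20 counts. Blood markers summed to 1.21 RPKM in NGOs and to 0.0260 or less elsewhere, with 5 of 6 at 0 in FGOs. The part of these cells in the mitochondrial values was not tested.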

How the data were processed

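RNA-Seq of mouse oocytes was available as 1 table of 25587 genes with 1 value per library. Per the submitters' processing notes, reads were trimmed with Trim Galore 0.2.8 and mapped to GRCm38 with TopHat2 2.0.9. The deposited values, titled as read counts, are RPKM on a linear scale; the program, annotation and strand setting behind them are not given in the sources used here. Counts were recovered by the value times gene length times library total. Lengths came from GENCODE M21, which may not be the authors' annotation, or from a search for the length that made all libraries whole. Among genes of 1 exon, from which the library totals were fitted, 99.4 to 99.7 % of values came out whole within 0.02 counts. For 9654 genes the search set the length and took the shortest that fitted, so whole counts there are no check. Those counts may be too low, which bears on the minimum of 20 counts and on the counts on genes. Recovered counts on genes were 61432789 (NGO), 71595285 (GO1), 132493730 (GO2) and 68789771 (FGO). They are not independent molecules, since reads carry no molecular identifiers and 1 fragment can give more than 1 count. In every library the fitted total was larger than the number of uniquely mapped reads that the authors reported. Intervals take each count as independent and so are too narrow. log2 ratios used a prior count of 1 and library sizes adjusted by a weighted trimmed mean of the log ratios. At each end, 30 % of ratios and 5 % of expression were trimmed. Genes needed 20 counts summed over the pair, so 15248 and 15720 genes were tested. With 1 library per stage, called means past 4-fold, and no p-value was computed. Intervals are 95 % Wilson (shares), exact Poisson (levels) or exact conditional binomial (ratios). Named genes were all 13 members, Polrmt and Tfam, Gm10222 (added after the values were seen) and, of each nuclear list, at most 4 members past 4-fold that had 100 or more counts in the higher one of the libraries. Members and lists were chosen with earlier results of these data known. Levels, shares and ratios were recomputed with other scalings, priors, filters and units. Scripts were tested on simulated data and ran in Python (3.11.15), with the packages numpy (2.4.6), pandas (2.3.3), scipy (1.17.1) and matplotlib (3.10.9).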

Additional observations from a re-analysis of the deposited data

How the results depend on the processing

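With 1 library per stage, counting error is the only error known, and for mt-Nd4l (41 to 99 counts) it is wide. No paired analysis was possible because each stage has 1 library. Every member kept the sign of its log2 ratio in both pairs under the other scalings, a prior count of 5 and no filter on low counts, and a minimum of 100 counts, which mt-Nd4l missed from NGOs to FGOs, left the counts past 4-fold as they were. mt-Nd6 ran from 2.06 to 2.20 from NGOs to FGOs. Scaled by summed counts, with or without mitochondrial genes, 3 members in place of 1 were past 4-fold lower from NGOs to FGOs: mt-Co2 at −2.01 and −2.02 and mt-Nd3 at −2.02 and −2.03 crossed the threshold. Without mitochondrial genes this scaling shifted the median of all genes by −0.11. At 2-fold, 6 members were lower in the dUTP pair and 11 in the ScriptSeq pair. As a share of summed RPKM, the 13 genes held 1.27 (NGO), 3.53 (GO1), 1.47 (GO2) and 0.395 % (FGO), and of the library total 0.204, 0.479, 0.208 and 0.0621 %, with the same order within kits. The sum of the 12 plus-strand genes over mt-Nd6 was 212, 121, 99.3 and 14.2 in RPKM and 347, 181, 161 and 23.5 in counts, the counts giving longer genes more weight. The median RPKM was the same without mt-Atp8 and mt-Nd4l. The alternatives without ribosomal and transfer RNAs could not give another value, since all 13 members are mRNAs. The sum of mt-Nd4l and Gm10222 was added after seeing the data; with it the highest gene was 94.7, 36.0, 19.6 and 26.4 times the lowest, in place of 661, 693, 381 and 212 times.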
